A study of Mus musculus with 4 samples.

Results

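Every cell that divides must copy its DNA once and then share the copies between its daughters, and the genes for this work form one of the best described programmes of the cell. The MCM helicase is loaded onto origins, opens the DNA in S phase and moves ahead of the polymerases, which are held on DNA by the PCNA clamp. Cyclin-dependent kinases (CDKs) with their cyclins start each step, the spindle checkpoint holds mitosis until every chromosome is attached, and CDK inhibitors halt the cycle. In adult liver nearly all hepatocytes rest outside the cycle. Wy14643 is a synthetic agonist of PPARα, the nuclear receptor for fatty acids that governs fat oxidation in liver, and agonists of this kind are known to enlarge the rodent liver and to drive rodent hepatocytes into division.

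The genes described here are 48 genes of DNA replication and cell division, listed by name for their roles: origin licensing and firing, the MCM helicase, the replication fork, deoxynucleotide supply, the cyclins and CDKs of each phase, mitotic entry, the spindle checkpoint, proliferation markers and CDK inhibitors. Of these, 47 were measured, by 88 of 22626 probe sets, among 12393 named genes in all. The gene for cyclin B1, Ccnb1, was not analysed here. The list was chosen with earlier results of these data known, so its share of called genes is a description and no independent test. A gene with several probe sets (25 of the 47) is represented by its probe set of highest mean intensity.

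The arrays held liver RNA of male mice of 12 to 20 weeks, pooled per group, with 1 Affymetrix MOE430A array for each of 4 groups: PPARα-null mice (labelled 129S4/SvJae) fed Wy14643, PPARα-null mice on the control diet, wild-type mice (labelled 129S1/SvImJ) fed Wy14643 and wild-type mice on the control diet. Wy14643 was mixed into the food at 0.1% for 5 days, and PPARα-null mice lack a functional receptor. With 1 array per group there is no replicate, so each ratio below compares 2 pools, carries no error and was not tested. Genotype and substrain cannot be told apart. In whole liver, fewer cells of a type and less RNA per cell cannot be told apart either.

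Values are intensities on the linear scale, as the authors computed them with GCRMA. One label of the Wy14643-fed wild-type array names control conditions, and its title and source name, which give Wy14643, were followed. Background was set at 13.0, the 90th percentile of the intensities of 68 probe sets whose 44 genes are silent in liver. Between 53.1% and 54.0% of probe sets passed it on each array. Ppara itself had intensities of 428 in Wy14643-fed PPARα-null liver, 326 in PPARα-null control liver, 1250.1 in Wy14643-fed wild-type liver and 847 in wild-type control liver, so signal remained in both PPARα-null pools. Where its probe set lies relative to the disrupted part of the gene is not given in the sources used here, so these values do not check the genotype labels. A gene was called when its ratio reached 1.5 in either direction and one or both arrays lay above background. Where one of the 2 arrays lay below background, the fold is given as the smallest that background allows ("at least"), and where both did, none is given. For lists, the calls and medians were taken from ratios of the intensities as deposited.

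Many of the listed genes are dim in these livers. Only 25 of the 47 were above background on all 4 arrays, 14 on 1 to 3 arrays and 8 on none. The 8 at or below background throughout were the origin recognition subunit Orc1, the licensing factor Cdc6, cyclin A2 (Ccna2), the mitotic kinases Plk1, Aurka and Bub1, the checkpoint gene Bub1b and the topoisomerase Top2a. Their intensities ran from 5.10 (Orc1, PPARα-null control) to 12.2 (Cdc6, wild-type control), so no fold is given for them.

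In wild-type mice, 19 of the 47 genes were at least 1.5-fold higher with Wy14643 than without it, where 9.21% of all named genes were, and 4 were lower, where 9.8% of all named genes were. The genes that rose were 5 of the 6 MCM subunits, 4 genes of the replication fork, the ribonucleotide reductase subunit Rrm1, cyclin D3 and its kinase Cdk4, the mitotic genes Cdk1, Ccnb2, Mad2l1, Cdc20 and Birc5, the proliferation marker Mki67 and the CDK inhibitor Cdkn1a. The 4 that fell were Mcm10, Tk1, Cdkn1b and Cdkn2c. Another 16 lay between the thresholds. The median log2 ratio was 0.44 over the 47 genes and 0.04 over all named genes. With values below background set to it, 15 genes were higher and 3 lower (8.75% and 9.37% of all named genes), and the median was 0.28 against 0.00 over all named genes. Fewer genes were called under stricter rules: 7 higher and 1 lower with 32 added to every intensity (6.31% and 6.17% of all named genes), and 8 higher and 2 lower at a ratio of 2 or more (4.21% and 4.61%).

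In PPARα-null mice the same feeding gave 1 higher gene of the 47, cyclin D1, and 0 lower, where 1.39% and 2.69% of all named genes were higher and lower. There were 29 genes between the thresholds and 17 with both arrays below background, and the median log2 ratio was 0.13 over the 47 genes and 0.04 over all named genes. At a ratio of 2 or more, 0 of the 47 were higher, where 0.113% of all named genes were. In the plot of responses the wild-type points spread well beyond the thresholds in the MCM, checkpoint and CDK inhibitor groups.

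**Figure D1:**
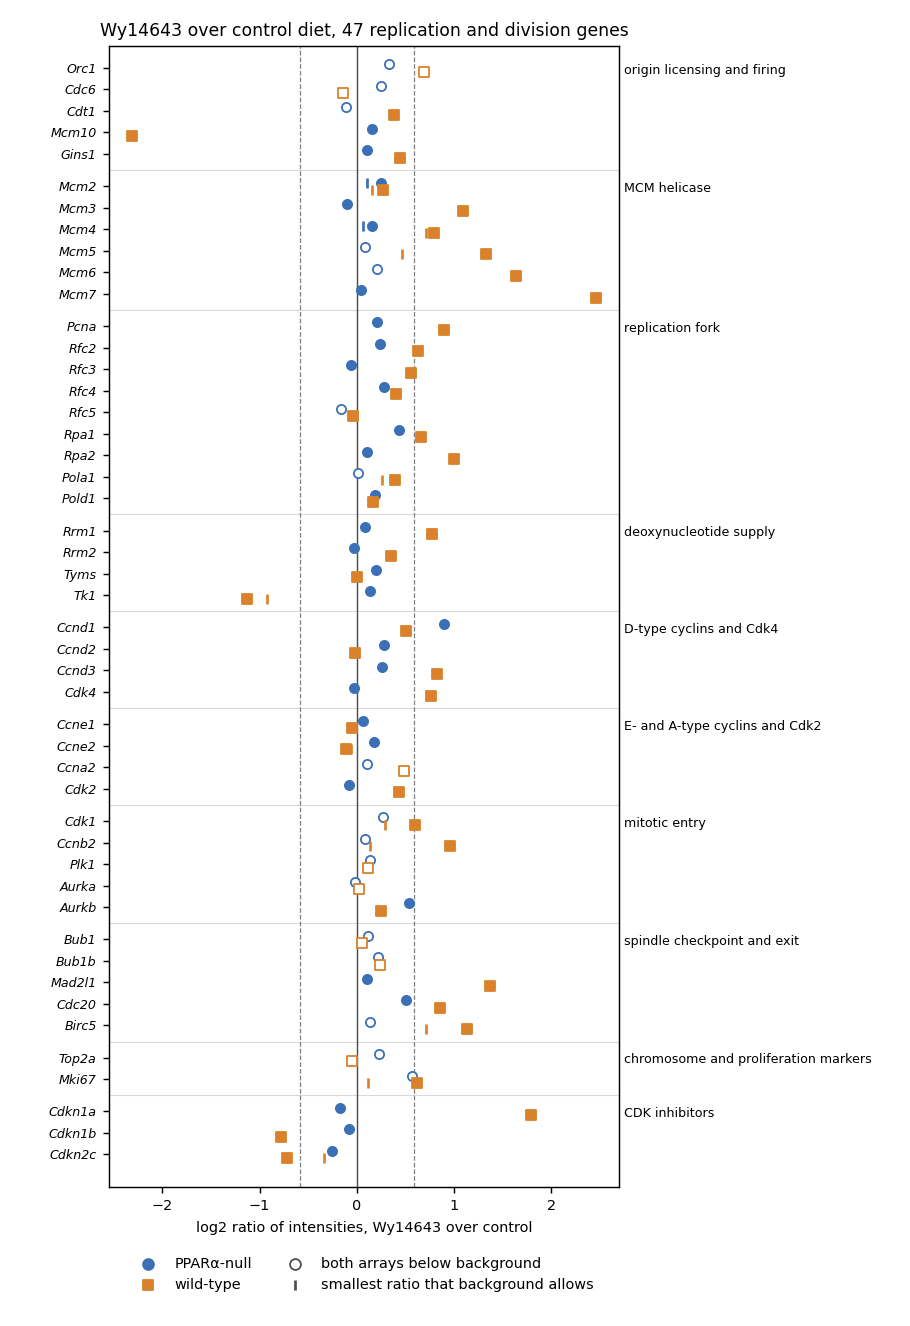
Log2 ratio of intensities for Wy14643 over the control diet (x axis) for the 47 measured genes (rows, grouped by role), in PPARα-null (circles) and wild-type mice (squares), with dashed lines at a ratio of 1.5 in either direction, open symbols where both arrays were below background and short bars at the smallest ratio that background allows. In wild-type mice 19 filled squares lie beyond the right line and 4 beyond the left, and in PPARα-null liver only the circle of Ccnd1 lies beyond a line.

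The MCM subunits Mcm2 to Mcm7 form the ring-shaped helicase. Promoters of the 5 subunits with a RefSeq window are shown because 5 of the 6 subunits rose in wild-type liver and because E2F, the factor family that switches on S-phase genes, is known to bind MCM promoters. The sequences of Mcm3, Mcm5, Mcm6 and Mcm7, which rose, come first, then that of Mcm2, which was not called by its reported probe set. Those of 3 genes that fell, Mcm10, Tk1 and Cdkn2c, follow. Each window runs from 250 bases before to 50 after the RefSeq start in GRCm38.p6, 5′ to 3′ on the gene's strand, with matches to the E2F motif (TTGGCGC or TTCCCGC, on either strand) in capitals. They lie at chr1:20820263-20820562, minus strand (Mcm3), chr8:75109259-75109558, plus strand (Mcm5), chr1:128359656-128359955, minus strand (Mcm6), chr5:138171834-138172133, minus strand (Mcm7, the upstream of its 2 starts), chr2:5012742-5013041, minus strand (Mcm10), chr11:117825965-117826264, minus strand (Tk1), chr6:88898731-88899030, minus strand (Mcm2) and chr4:109666707-109667006, minus strand (Cdkn2c, the upstream of its 2 starts).
Mcm3: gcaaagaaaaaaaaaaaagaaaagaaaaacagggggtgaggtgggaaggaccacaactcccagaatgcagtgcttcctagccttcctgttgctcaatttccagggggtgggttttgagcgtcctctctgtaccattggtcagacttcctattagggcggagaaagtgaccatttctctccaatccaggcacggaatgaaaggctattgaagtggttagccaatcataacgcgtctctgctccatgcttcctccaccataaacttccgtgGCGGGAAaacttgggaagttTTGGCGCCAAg
Mcm5: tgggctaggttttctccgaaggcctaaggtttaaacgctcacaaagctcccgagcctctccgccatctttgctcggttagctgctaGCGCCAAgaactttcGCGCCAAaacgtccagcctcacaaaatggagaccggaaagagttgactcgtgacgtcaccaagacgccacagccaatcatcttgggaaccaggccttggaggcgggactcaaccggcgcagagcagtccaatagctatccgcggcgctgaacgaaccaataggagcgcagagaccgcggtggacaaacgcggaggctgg
Mcm6: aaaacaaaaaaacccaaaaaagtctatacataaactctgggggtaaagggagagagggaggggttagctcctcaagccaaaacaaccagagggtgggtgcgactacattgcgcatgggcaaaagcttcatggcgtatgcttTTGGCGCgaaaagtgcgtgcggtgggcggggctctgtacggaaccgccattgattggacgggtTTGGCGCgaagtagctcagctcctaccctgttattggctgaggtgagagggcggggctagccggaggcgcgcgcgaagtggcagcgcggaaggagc
Mcm7: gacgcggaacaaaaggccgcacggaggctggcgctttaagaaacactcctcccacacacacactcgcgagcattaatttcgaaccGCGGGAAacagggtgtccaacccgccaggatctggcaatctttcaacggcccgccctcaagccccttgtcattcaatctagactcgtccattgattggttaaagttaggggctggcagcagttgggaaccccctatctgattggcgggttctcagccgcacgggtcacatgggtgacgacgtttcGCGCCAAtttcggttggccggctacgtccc
Mcm2: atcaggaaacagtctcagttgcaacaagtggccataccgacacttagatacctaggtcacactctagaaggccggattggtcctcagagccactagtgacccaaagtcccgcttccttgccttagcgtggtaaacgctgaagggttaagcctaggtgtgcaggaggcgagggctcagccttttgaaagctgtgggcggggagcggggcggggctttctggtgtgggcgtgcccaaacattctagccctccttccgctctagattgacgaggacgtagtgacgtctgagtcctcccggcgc
Mcm10: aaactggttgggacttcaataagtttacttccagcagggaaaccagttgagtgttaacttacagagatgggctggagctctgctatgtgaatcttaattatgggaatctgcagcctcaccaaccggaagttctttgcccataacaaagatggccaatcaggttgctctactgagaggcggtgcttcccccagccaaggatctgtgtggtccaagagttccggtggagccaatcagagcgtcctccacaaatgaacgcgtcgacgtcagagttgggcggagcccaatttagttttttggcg
Tk1: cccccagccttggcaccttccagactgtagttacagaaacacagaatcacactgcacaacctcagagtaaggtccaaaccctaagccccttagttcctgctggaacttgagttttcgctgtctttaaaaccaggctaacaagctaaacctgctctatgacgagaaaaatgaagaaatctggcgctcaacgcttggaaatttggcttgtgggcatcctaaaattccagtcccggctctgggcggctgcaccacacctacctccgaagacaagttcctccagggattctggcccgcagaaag
Cdkn2c: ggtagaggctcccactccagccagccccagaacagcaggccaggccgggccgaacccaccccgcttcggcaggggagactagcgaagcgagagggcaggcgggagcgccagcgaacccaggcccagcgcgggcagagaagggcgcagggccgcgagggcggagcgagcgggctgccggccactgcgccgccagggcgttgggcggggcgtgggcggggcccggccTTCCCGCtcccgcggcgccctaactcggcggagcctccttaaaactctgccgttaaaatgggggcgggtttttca

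In these windows the E2F motif had 3 matches in Mcm3 (2 of them overlapping) and 2 each in Mcm5, Mcm6 and Mcm7, 1 in Cdkn2c, and 0 in Mcm2, Mcm10 and Tk1. The first bases of the matches lay at positions 19, 39 and 42 in Mcm3, counted with the start as 0, at -164 and -149 in Mcm5, at -109 and -46 in Mcm6, at -165 and 20 in Mcm7 and at -25 in Cdkn2c. RefSeq windows were at hand for 39 of the 47 genes (43 windows). The E2F motif was found in 17 of the 43 windows (39.5%), against 6.81% of all 32851 windows counted. These leave out a chromosome that holds none of the 47 genes. The CCAAT box (CCAAT), which overlaps an E2F match only in Mcm7, was found in 28 windows (65.1%, against 37.4% of all). The CHR element of mitotic promoters (TTTGAA) was found in 9 windows (20.9%, against 17.9% of all), and all 9 belong to different genes, among them Cdk1, Ccnb2, Cdc20, Plk1 and Aurka. The DR1 element of PPARs (AGGTCA, any base, AGGTCA, on either strand) was found in 0 of the 43 windows and in 13 of all windows counted (0.0396%). An exact match is so rare that 0 of 43 does not show that these genes lack PPAR elements. Elements with other letters or outside the windows were not sought.

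By response, the E2F motif was in the windows of 8 of 17 genes that rose in wild-type liver (Cdk1, Mcm3, Mcm5, Mcm6, Mcm7, Mki67, Rpa2 and Rrm1), in 1 of 4 that fell (Cdkn2c) and in 7 of 18 that were not called. The motif was thus nearly as frequent in genes that were not called as in genes that rose. A match describes letters only and was not tested as a binding site.

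Among the MCM subunits the largest difference was that of Mcm7. It had intensities of 42.4 in Wy14643-fed PPARα-null liver, 41.1 in PPARα-null control liver, 166 in Wy14643-fed wild-type liver and 30.3 in wild-type control liver. The wild-type Wy14643 array alone stood out, 5.48-fold over its control, and 86 of the 12393 named genes had a higher ratio. Of the other 3 probe sets of Mcm7, 2 had log2 ratios of 2.74 and 0.58 in wild-type liver, and the third was at least 1.36-fold higher, its control value being below background. The suffixes of all 4 (_s_at, _a_at or _x_at) mark probes that may bind several transcripts or variants. In PPARα-null mice the log2 ratio was 0.04.

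Mcm6 had intensities of 12.7 in Wy14643-fed PPARα-null liver, 11 in PPARα-null control liver, 44.7 in Wy14643-fed wild-type liver and 14.4 in wild-type control liver, so both PPARα-null arrays were below background. It was 3.11-fold higher in wild-type liver after Wy14643, and its second probe set was at least 1.44-fold higher, which does not reach 1.5. Mcm5 had intensities of 7.47 in Wy14643-fed PPARα-null liver, 7.04 in PPARα-null control liver, 17.9 in Wy14643-fed wild-type liver and 7.12 in wild-type control liver, with 3 of the arrays below background. Its wild-type increase was at least 1.38-fold, a bound that does not itself reach 1.5.

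Mcm3 had intensities of 16.3 in Wy14643-fed PPARα-null liver, 17.5 in PPARα-null control liver, 34.4 in Wy14643-fed wild-type liver and 16.2 in wild-type control liver, a 2.13-fold increase in wild-type liver. This value rests on 1 probe set of 5, whose suffix (_s_at) marks probes that may bind several transcripts. A second shared probe set gave a log2 ratio of 0.37, and the 3 probe sets without such a suffix were below background on all 4 arrays. Mcm4 had intensities of 13.6 in Wy14643-fed PPARα-null liver, 12.2 in PPARα-null control liver, 21.2 in Wy14643-fed wild-type liver and 12.3 in wild-type control liver, at least 1.63-fold higher in wild-type liver after Wy14643.

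Mcm2 was the only subunit not called, with intensities of 14.0 in Wy14643-fed PPARα-null liver, 11.7 in PPARα-null control liver, 14.4 in Wy14643-fed wild-type liver and 12.0 in wild-type control liver. Both control values were below background, and it was at least 1.08-fold higher after Wy14643 in PPARα-null liver and at least 1.11-fold in wild-type liver. A second Mcm2 probe set was above background on the wild-type Wy14643 array only, with intensities of 14.8 there and 7.27 in wild-type control liver. Its log2 ratio of 1.03 would pass the call rule, though its bound of at least 1.14-fold does not reach 1.5. The call for Mcm2 thus depends on the probe set. The median log2 ratio of the 6 subunits was 0.12 in PPARα-null liver and 1.21 in wild-type liver.

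**Figure D2:**
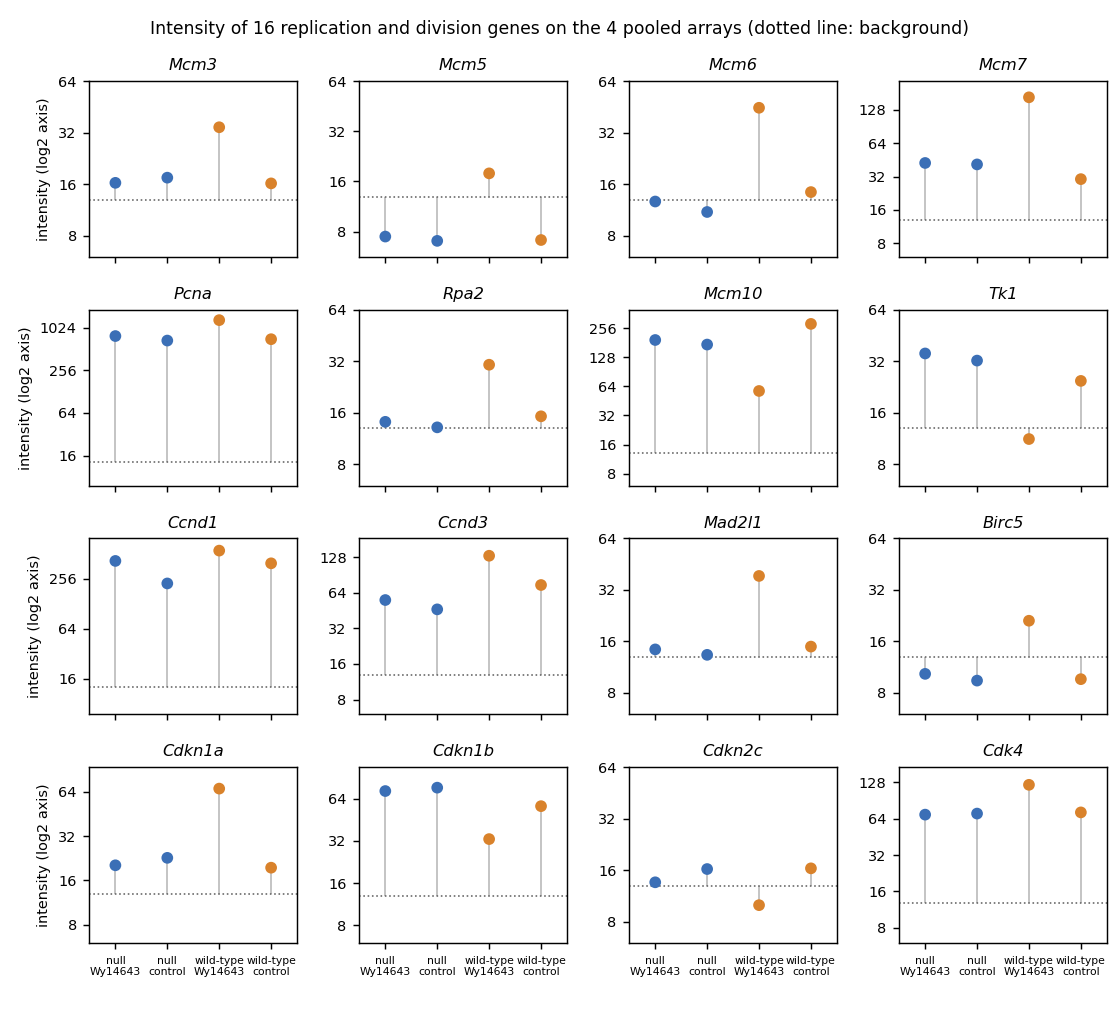
Intensity (log2 axis, own range per panel) of 16 replication and division genes on the 4 pooled arrays, 1 point per array, with a thin line to the background at 13.0 (dotted). For Mcm3, Mcm5, Mcm6, Mcm7, Pcna, Rpa2, Ccnd1, Ccnd3, Mad2l1, Birc5, Cdkn1a and Cdk4 the wild-type Wy14643 point lies above the other 3, and for Mcm10, Tk1, Cdkn1b and Cdkn2c it lies below them.

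Of 5 genes that license and fire origins, 0 rose and 1, Mcm10, fell in wild-type liver, where 9.21% and 9.8% of all named genes did. In so small a group these counts are near those shares. Mcm10, which despite its name is no subunit of the ring but helps to activate it and to recruit the polymerase that starts new strands, had intensities of 194 in Wy14643-fed PPARα-null liver, 174 in PPARα-null control liver, 57.4 in Wy14643-fed wild-type liver and 284 in wild-type control liver. It was 4.95-fold lower in wild-type liver after Wy14643, where 121 of 12393 named genes had a lower ratio, with a log2 ratio of 0.16 in PPARα-null liver. The value comes from 1 probe set, whose suffix (_a_at) marks probes that may bind several transcripts or variants. A second one for Mcm10, without such a suffix, was below background on all 4 arrays. Cdt1, which loads the MCM ring, and Gins1, a subunit of the active helicase, had log2 ratios of 0.38 and 0.44 in wild-type liver. In PPARα-null liver both Cdt1 values were below background, and Gins1 had a log2 ratio of 0.11.

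At the replication fork, 4 of 9 genes rose in wild-type liver and 0 fell, where 9.21% and 9.8% of all named genes did. Pcna, the sliding clamp, had intensities of 780.2 in Wy14643-fed PPARα-null liver, 674 in PPARα-null control liver, 1309.7 in Wy14643-fed wild-type liver and 704 in wild-type control liver, 1.86-fold higher in wild-type liver after Wy14643. Rpa2, a subunit of the complex that coats single-stranded DNA, had intensities of 14.2 in Wy14643-fed PPARα-null liver, 13.2 in PPARα-null control liver, 30.6 in Wy14643-fed wild-type liver and 15.3 in wild-type control liver. Its increase in wild-type liver was 2.00-fold, and its second probe set was at least 1.25-fold higher there.

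Rpa1, the largest subunit of the same complex, had intensities of 349.8 in Wy14643-fed PPARα-null liver, 259.6 in PPARα-null control liver, 406 in Wy14643-fed wild-type liver and 258 in wild-type control liver. The increase was 1.57-fold in wild-type liver, and the log2 ratio was 0.43 in PPARα-null liver, which did not reach the threshold. The second Rpa1 probe set had log2 ratios of 0.19 in PPARα-null and 0.56 in wild-type liver.

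The clamp loader subunits Rfc2 to Rfc5 differed among themselves. Rfc2 was 1.54-fold higher in wild-type liver after Wy14643, and Rfc5 had a log2 ratio of -0.04 there. Rfc3 had intensities of 15.5 in Wy14643-fed PPARα-null liver, 16.2 in PPARα-null control liver, 26.8 in Wy14643-fed wild-type liver and 18.2 in wild-type control liver, a log2 ratio of 0.56 in wild-type liver. Its second probe set gave -0.11, so the direction for Rfc3 depends on the probe set.

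Rfc4 had intensities of 23.8 in Wy14643-fed PPARα-null liver, 19.7 in PPARα-null control liver, 29.2 in Wy14643-fed wild-type liver and 22 in wild-type control liver. Its log2 ratios were 0.27 in PPARα-null and 0.41 in wild-type liver. Its second probe set was below background on 1 array of each pair, at least 1.13-fold lower after Wy14643 in PPARα-null liver and at least 1.58-fold higher in wild-type liver. Of the catalytic polymerase subunits, Pola1 was at least 1.20-fold higher in wild-type liver and Pold1 had a log2 ratio of 0.17 there, and neither was called.

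Genes that supply deoxynucleotides moved in both directions. Rrm1, the large subunit of ribonucleotide reductase, which makes deoxynucleotides from ribonucleotides, had intensities of 15.1 in Wy14643-fed PPARα-null liver, 14.2 in PPARα-null control liver, 28.2 in Wy14643-fed wild-type liver and 16.6 in wild-type control liver, 1.71-fold higher in wild-type liver after Wy14643. The small subunit Rrm2 had intensities of 24.4 in Wy14643-fed PPARα-null liver, 24.9 in PPARα-null control liver, 25.7 in Wy14643-fed wild-type liver and 20.2 in wild-type control liver, a log2 ratio of 0.35 in wild-type liver that was not called. The second Rrm1 probe set was at least 1.38-fold higher after Wy14643 in PPARα-null liver and had a log2 ratio of 0.47 in wild-type liver. Neither value was called. The subunits of this enzyme thus stood on different sides of the threshold only by the probe set reported for Rrm1.

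Tk1, thymidine kinase, which salvages thymidine for DNA synthesis, fell. Its intensities were 35.6 in Wy14643-fed PPARα-null liver, 32.3 in PPARα-null control liver, 11.2 in Wy14643-fed wild-type liver and 24.6 in wild-type control liver, at least 1.90-fold lower in wild-type liver after Wy14643. Tyms, thymidylate synthase, which makes thymidylate anew, had intensities of 18.9 in Wy14643-fed PPARα-null liver, 16.5 in PPARα-null control liver, 16.1 in Wy14643-fed wild-type liver and 16.1 in wild-type control liver. Its log2 ratios were 0.19 in PPARα-null and 0.00 in wild-type liver.

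D-type cyclins link growth signals to the cycle by activating Cdk4, and they showed 3 different patterns. Cyclin D1 (Ccnd1), the D-type cyclin that rises when hepatocytes leave rest, had intensities of 419 in Wy14643-fed PPARα-null liver, 224 in PPARα-null control liver, 557 in Wy14643-fed wild-type liver and 392 in wild-type control liver. It was the only one of the 47 genes that rose in PPARα-null liver (1.86-fold), where 28 of 12393 named genes had a higher ratio, and its log2 ratio in wild-type liver was 0.51, which did not reach the threshold. The other 2 probe sets of Ccnd1 gave log2 ratios of 1.30 and 0.66 in PPARα-null liver, and 1.0 and 0.02 in wild-type liver, so all 3 were called in PPARα-null liver and 1 of 3 in wild-type liver.

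Cyclin D3 (Ccnd3) had intensities of 55.5 in Wy14643-fed PPARα-null liver, 46.3 in PPARα-null control liver, 131 in Wy14643-fed wild-type liver and 74.3 in wild-type control liver, 1.77-fold higher in wild-type liver after Wy14643. Cyclin D2 (Ccnd2) had intensities of 29.3 in Wy14643-fed PPARα-null liver, 24.2 in PPARα-null control liver, 23.5 in Wy14643-fed wild-type liver and 23.8 in wild-type control liver. It was called in neither genotype, but its probe sets disagreed in PPARα-null liver, where log2 ratios ran from -0.86 to 0.28 over the 5 that could be measured.

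Cdk4, the kinase partner of the D-type cyclins, had intensities of 69.0 in Wy14643-fed PPARα-null liver, 70.4 in PPARα-null control liver, 122 in Wy14643-fed wild-type liver and 72.0 in wild-type control liver. It was 1.69-fold higher in wild-type liver after Wy14643. Its other probe sets had log2 ratios of 0.43 and 0.35 there, which did not reach the threshold. The cyclins and kinase of the next step did not move past the threshold in either genotype. Cyclin E1 (Ccne1) and Cdk2, which together start S phase, had log2 ratios of -0.05 and 0.44 in wild-type liver. Cyclin E2 (Ccne2), which acts with the same kinase, was at least 1.04-fold lower there.

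Among genes of mitosis, those called in wild-type liver were mostly near background. Mad2l1, which signals unattached chromosomes, had intensities of 14.4 in Wy14643-fed PPARα-null liver, 13.4 in PPARα-null control liver, 38.6 in Wy14643-fed wild-type liver and 14.9 in wild-type control liver, 2.59-fold higher in wild-type liver after Wy14643. Cdc20, the activator of the ligase that ends mitosis, had intensities of 27.7 in Wy14643-fed PPARα-null liver, 19.6 in PPARα-null control liver, 41.6 in Wy14643-fed wild-type liver and 23.1 in wild-type control liver. It was 1.80-fold higher in wild-type liver after Wy14643, and its log2 ratio in PPARα-null liver was 0.50, below the threshold.

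Birc5, survivin, a subunit of the complex that corrects chromosome attachment, was above background on the wild-type Wy14643 array only. Its intensities were 10.3 in Wy14643-fed PPARα-null liver, 9.45 in PPARα-null control liver, 21.1 in Wy14643-fed wild-type liver and 9.63 in wild-type control liver, at least 1.63-fold higher in wild-type liver after Wy14643. Ccnb2, a cyclin of the mitotic kinase, had intensities of 6.74 in Wy14643-fed PPARα-null liver, 6.35 in PPARα-null control liver, 14.2 in Wy14643-fed wild-type liver and 7.31 in wild-type control liver.

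Ccnb2, the mitotic kinase Cdk1 and Mki67, the antigen used to score dividing cells, each passed background on the wild-type Wy14643 array only. The smallest folds that background allows were 1.10 for Ccnb2, 1.22 for Cdk1 and 1.08 for Mki67, so these 3 calls are not held when values below background are set to it. For Mki67 the deposited values were close in both genotypes. They were 12.3 in Wy14643-fed PPARα-null liver, 8.31 in PPARα-null control liver, 14.0 in Wy14643-fed wild-type liver and 9.13 in wild-type control liver. The log2 ratio was 0.56 in PPARα-null liver, below the threshold and with both arrays below background, and 0.62 in wild-type liver. The call in wild-type liver alone thus rests on a small difference in ratio. Aurkb, the kinase partner of survivin, had log2 ratios of 0.53 in PPARα-null and 0.24 in wild-type liver and was not called.

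The CDK inhibitors went in opposite directions in wild-type liver. Cdkn1a, the inhibitor induced by p53, had intensities of 20.3 in Wy14643-fed PPARα-null liver, 22.8 in PPARα-null control liver, 67.4 in Wy14643-fed wild-type liver and 19.5 in wild-type control liver, 3.45-fold higher in wild-type liver after Wy14643. Cdkn1b, an inhibitor of resting cells, had intensities of 72.3 in Wy14643-fed PPARα-null liver, 76.4 in PPARα-null control liver, 32.9 in Wy14643-fed wild-type liver and 56.5 in wild-type control liver, 1.71-fold lower in wild-type liver after Wy14643.

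Cdkn2c, which blocks Cdk4, had intensities of 13.6 in Wy14643-fed PPARα-null liver, 16.2 in PPARα-null control liver, 9.99 in Wy14643-fed wild-type liver and 16.4 in wild-type control liver, at least 1.26-fold lower in wild-type liver after Wy14643, a bound that does not reach 1.5. None of the 3 inhibitors was called in PPARα-null liver, with log2 ratios of -0.17 for Cdkn1a, -0.08 for Cdkn1b and -0.26 for Cdkn2c.

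The further probe sets of these genes were compared with the values reported. The genes called in wild-type liver had 19 further probe sets, of which 16 had the direction of the value reported and 3 the other, 1 each of Cdc20, Cdkn1b and Mcm3, all 3 below background on both arrays. For the comparison of genotypes on Wy14643, 13 of 17 had the same direction and 4 the other, 1 each of Cdk4, Rfc3, Cdkn1b and Mcm3, of which those of Cdk4 and Rfc3 were above background. Besides those of Mcm3, Mcm7 and Mcm10, the probe sets reported for Mcm6, Rpa1, Rpa2, Cdk4, Cdc20 and Birc5 carry suffixes (_s_at, _x_at or _a_at). The probe sets of Rpa1, Rpa2 and Cdk4 without a suffix had log2 ratios of 0.56, 0.42 and 0.43 in wild-type liver. None of these reached the threshold, and for Rpa2 the control value was below background. Probe sets of 1 gene share the RNA and the array, so they do not replace a replicate.

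**Figure D3:**
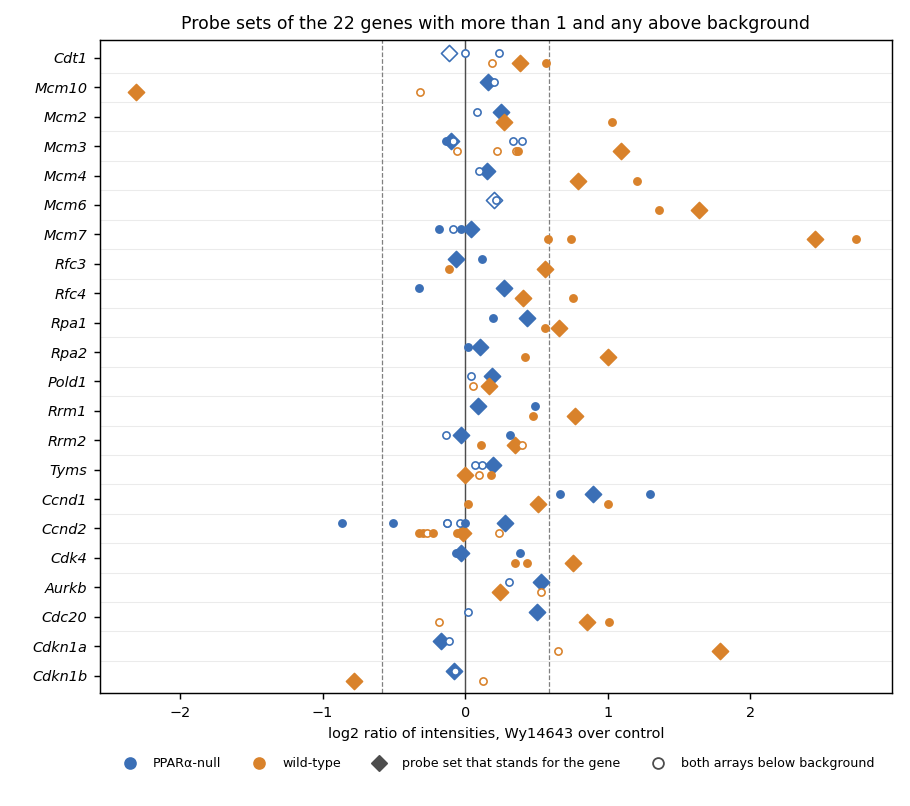
Log2 ratio of intensities for Wy14643 over the control diet (x axis) for every probe set of the 22 genes that have more than 1 and any above background (rows), in PPARα-null and wild-type liver, with a diamond for the probe set that stands for the gene, open symbols where both arrays were below background and dashed lines at a ratio of 1.5. The wild-type points of all 4 Mcm7 probe sets lie right of 0, and the 3 PPARα-null probe sets of Ccnd1 all lie beyond the right line.

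The study set PPARα-null against wild-type mice on Wy14643. In that comparison 16 of the 47 genes were lower in PPARα-null liver and 3 were higher, where 10.3% and 10.9% of all named genes were lower and higher. The median log2 ratio was -0.41 over the 47 genes and 0.00 over all named genes. This comparison and that of Wy14643 with the control diet in wild-type liver share the wild-type Wy14643 array, so they are not independent. With values below background set to it, 13 were lower and 3 higher (9.84% and 10.6% of all named genes). With 32 added 7 were lower (7.15% of all named genes), and at a ratio of 2 or more 10 were (5.16%).

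The genes lower in PPARα-null liver were led by subunits of the helicase. Mcm7 was 3.92-fold lower, Mcm6 at least 3.45-fold, Cdkn1a 3.32-fold, Mad2l1 2.69-fold, Ccnd3 2.37-fold, Rpa2 2.16-fold and Mcm3 2.11-fold. Rrm1 was 1.87-fold lower, Cdk4 1.76-fold, Rfc3 1.74-fold, Pcna 1.68-fold and Mcm4 1.56-fold. For Birc5, Mcm5, Pola1 and Ccnb2 the PPARα-null array was below background, and they were at least 1.63-fold, 1.38-fold, 1.20-fold and 1.10-fold lower, and only the bound of Birc5 reaches 1.5.

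The 3 genes higher in PPARα-null liver have different roles. Mcm10, the helicase activator, was 3.37-fold higher than in wild-type liver, the salvage kinase gene Tk1 at least 2.74-fold and the CDK inhibitor gene Cdkn1b 2.2-fold. For Cdk4 and Rfc3 the difference between genotypes depended on the probe set, since a further probe set gave log2 ratios of 0.02 and 0.19. The difference in Mcm3 rests on its shared probe sets, as above.

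On the control diet, 0 of the 47 genes were higher and 3 were lower in PPARα-null liver, where 1.48% and 1.44% of all named genes were higher and lower. The 3 were Ccnd1 (1.75-fold lower), Mcm10 (1.64-fold lower) and Ccnd3 (1.61-fold lower), and at a ratio of 2 or more 0 were lower, where 0.492% of all named genes were. The cyclins D1 and D3 were thus below their wild-type level without treatment. Ccnd3 was lower in PPARα-null liver on both diets, while Mcm10 was lower on the control diet and higher on Wy14643. The median log2 ratio was -0.05 over the 47 genes.

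**Figure D4:**
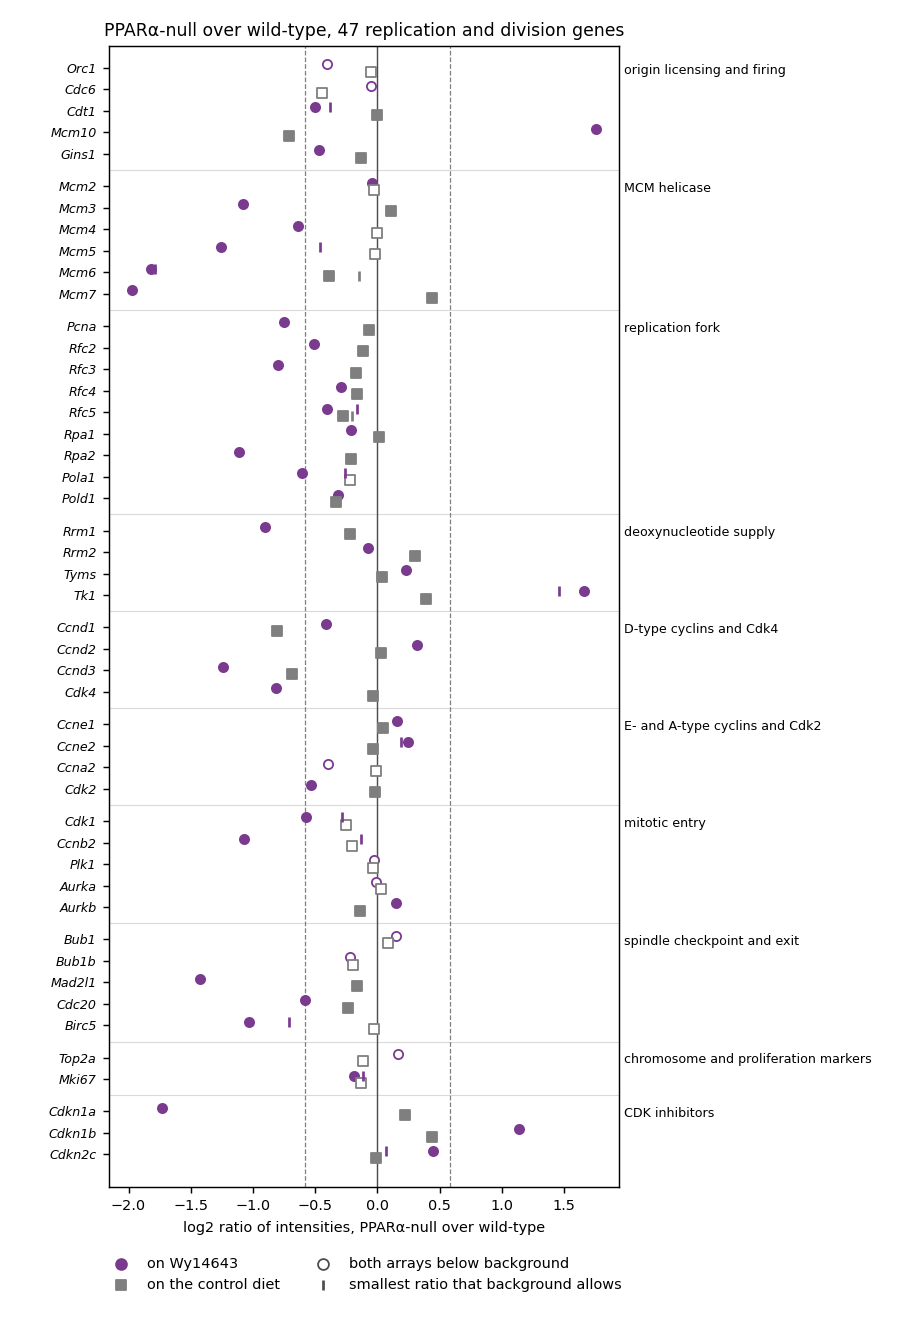
Log2 ratio of intensities for PPARα-null over wild-type (x axis) for the 47 measured genes (rows, grouped by role), on Wy14643 (circles) and on the control diet (squares), with dashed lines at a ratio of 1.5 in either direction, open symbols where both arrays were below background and short bars at the smallest ratio that background allows. On Wy14643, 16 circles lie beyond the left line and 3, those of Mcm10, Tk1 and Cdkn1b, beyond the right line, while on the control diet only the squares of Mcm10, Ccnd1 and Ccnd3 lie beyond a line.

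Other genes of the same pathways were listed for their roles too, also with earlier results of these data known. Their counts stand beside the same shares of all named genes, 9.21% higher and 9.8% lower after Wy14643 in wild-type liver and 1.39% and 2.69% in PPARα-null liver, and shares of small lists near these are no result about the list. Of 41 other replication genes, 7 rose and 1 fell on Wy14643 in wild-type liver, with a median log2 ratio of 0.26. The largest increases were those of Gins4, which sits in the helicase with Gins1 (113 on Wy14643 and 30.6 on the control diet, 3.70-fold), Tipin, a fork protection factor (62.2 and 24.4, 2.54-fold), Orc3, an origin recognition subunit (158 and 70.9, 2.23-fold), and the flap endonuclease Fen1 (94.3 and 49.3, 1.91-fold). In PPARα-null mice only the clamp loader subunit Rfc1 was called in this list, 1.52-fold higher.

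Of 51 other mitosis genes, 9 rose and 2 fell in wild-type liver. With values below background set to it, 5 of the 51 rose, near the 8.75% of all named genes that did. Spc25, a kinetochore subunit, had intensities of 91.3 on Wy14643 and 17.0 on the control diet in wild-type liver, 5.36-fold higher. Pttg1, securin, which guards sister chromatids, was 3.11-fold higher and the condensin subunit Smc4 2.35-fold, while Cdca3, a mitotic entry factor, was at least 1.12-fold higher. In PPARα-null liver 0 of the 51 were called, near the shares of all named genes.

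The regulators of these programmes were mixed. Of 15 E2F, RB and FOXM1 family genes, 2 rose and 2 fell in wild-type liver. E2f8, a repressor of the E2F family, was 2.69-fold higher and Lin37, a subunit of the complex that silences cycle genes at rest, 1.5-fold. Rbl2, the RB relative of that complex, fell to 49.4 on Wy14643, against 180 on the control diet, 3.64-fold lower, and E2f5, a partner of RB relatives, was 1.58-fold lower. None of the 15 was called on Wy14643 in PPARα-null liver.

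Of 20 other CDKs, cyclins and inhibitors, 2 rose and 1 fell in wild-type liver, shares near those of all named genes. The atypical cyclins Ccng2 and Ccng1 were 6.09-fold and 2.43-fold higher, and Ccnh, a subunit of the kinase that activates CDKs, was 2.84-fold lower. Of 14 p53 targets and growth arrest genes, 3 rose and 5 fell. The growth arrest genes Gadd45b (at least 5.15-fold) and Gadd45g (3.19-fold) were higher, and the antiproliferative gene Btg2 (4.31-fold) and the p53 partner Trp53inp1 (2.82-fold) were lower. In PPARα-null liver Btg2 was the only gene of both lists called after Wy14643, with intensities of 253 on Wy14643 and 134 on the control diet, 1.89-fold higher.

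Growth signals are known to rise early in regenerating liver. Of 15 measured genes of this kind, 0 rose and 5 fell in wild-type liver, with a median log2 ratio of -0.35. The immediate early gene Fos had intensities of 12.9 on Wy14643 and 715 on the control diet, at least 55.2-fold lower. The growth factor receptor Egfr was 6.75-fold lower, the Fos partner Jun 3.72-fold lower and the cytokine transducer Stat3 2.81-fold lower. None of the 15 was called on Wy14643 in PPARα-null liver, where Fos had intensities of 825 on Wy14643 and 571 on the control diet.

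Between the genotypes on Wy14643, 0 of the 41 other replication genes were higher and 9 lower in PPARα-null liver, and 0 of the 51 other mitosis genes were higher and 7 lower, where 10.9% and 10.3% of all named genes were higher and lower. The 7 of 51 are near that share. Gins4 was 3.71-fold lower, Spc25 6.31-fold, Pttg1 2.91-fold and Tipin 2.56-fold. Of the E2F, RB and FOXM1 family 1 gene was higher (Rbl2, 4.88-fold) and 1 lower (E2f8, 4.53-fold), and of the other CDKs, cyclins and inhibitors 1 was higher and 3 were lower. Of the p53 targets and growth arrest genes 4 were higher and 2 lower, and of the growth signals 5 were higher and 2 lower. On the control diet 3 genes of these 6 lists were called. Of all named genes, 1.48% were higher and 1.44% lower in PPARα-null liver on that diet. So few calls are no result about the lists. E2f8 was at least 1.90-fold lower in PPARα-null liver, and Egfr and the cytokine receptor gene Il6ra were 1.68-fold and 2.16-fold higher.

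**Figure D5:**
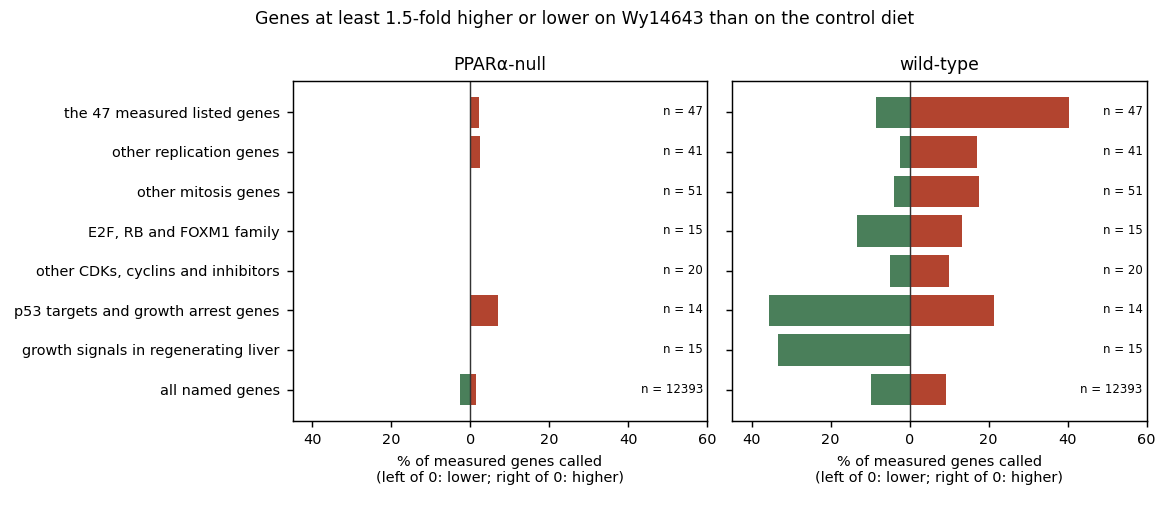
Share of measured genes (x axis, %) called at least 1.5-fold lower (left of 0) or higher (right of 0) with Wy14643 than without it, in PPARα-null (left panel) and wild-type mice (right panel), for the 47 genes, 6 other lists and all named genes, with the number of genes beside each bar. In wild-type mice the 47 genes have the longest bar on the right (40.4% higher, against 9.21% of all named genes), and the growth signals have a bar on the left only.

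Markers of other cell types were read on the same arrays, since blood and immune cells also divide. Of all named genes, 1.39% were higher and 2.69% lower on Wy14643 in PPARα-null liver. In wild-type liver these shares were 9.21% and 9.8%. Counts of small marker lists near these shares are no result about the list. Of 11 measured Kupffer cell markers, 10 were lower on Wy14643 in PPARα-null liver and 8 in wild-type liver, with 0 higher. Their summed intensity was 693 in Wy14643-fed PPARα-null liver, 1351 in PPARα-null control liver, 448 in Wy14643-fed wild-type liver and 1135 in wild-type control liver. The part of these lower values in the results for replication genes was not tested.

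Of 10 lymphocyte markers, 2 were higher on Wy14643 in PPARα-null liver and 0 were called in wild-type liver, where their summed intensity was 122 on Wy14643 and 120.1 on the control diet. The T and B cell genes Cd3d, Cd3g, Cd8a and Cd79a were below background on all 4 arrays. The 8 erythroid markers had none called in either genotype and summed to between 77.0 and 81.2 on the 4 arrays, with Klf1, Gata1 and Tal1 below background on all of them. Of 7 neutrophil markers, 3 were higher in Wy14643-fed PPARα-null liver (summed intensity 279.5, against 80.5 on the control diet), and 0 were called in wild-type liver. Hepatocyte markers were above background on all arrays, 10 of 10, with 3 lower in Wy14643-fed wild-type liver and 0 called in PPARα-null liver.

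Of 8 stellate cell markers, 3 were higher on Wy14643 in PPARα-null liver and 3 lower in wild-type liver, with Des and Lrat below background on all 4 arrays. Their summed intensity was 2185 in Wy14643-fed PPARα-null liver, 1658 in PPARα-null control liver, 804 in Wy14643-fed wild-type liver and 1524 in wild-type control liver. Of 8 endothelial markers, 4 were lower on Wy14643 in PPARα-null liver and 1 in wild-type liver. Of 5 bile duct markers, 0 were called in PPARα-null liver and 1, Sox9, was higher in wild-type liver, and the other 4 were below background on all 4 arrays. Whether any of these cell types had a part in the ratios of the replication genes was not tested.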

How the data were processed

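For each of 4 MOE430A arrays of pooled liver RNA, the authors deposited 1 intensity per probe set, on the linear scale, made with GCRMA (2.20 by the submitters' processing notes). This method subtracts background, gives every array the same distribution and then combines the probes of a set, and differences between dim probe sets can shrink in it. Which arrays were processed together is not given in the sources used here. Of 22690 probe sets, 64 controls were left out. Names came from GEO's platform annotation: 20380 probe sets had 1 symbol, 691 several (not used) and 1555 none. A gene took the values of its probe set of highest mean intensity. Log2 ratios were taken for 4 comparisons over all named genes, with the 1.5-fold criterion of the study's methods and no test. The number of arrays limits the precision.

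The members and lists were chosen with earlier results of these data known. All listed genes may be named, values on 4 arrays are given for genes called at 2-fold or more, D-type cyclins, CDK inhibitors and genes whose probe sets disagree (Mcm2, Mcm4, Pcna, Rrm1 and Cdc20 were added after their values were seen), and of each other list the 4 called genes with the largest wild-type ratio. Mki67, whose values are also given, meets none of these rules. Alternatives were other backgrounds, a floor at background, 32 added, a filter on dim genes, a ratio of 2, median centring, cyclic loess (limma 3.58.1, R 4.3.3), the median over probe sets, and no probe sets with the suffixes _s_at, _x_at and _a_at. Promoter windows came from RefSeq (GRCm38.p6), with none for 8 members. The calculation was tested on simulated data. Python 3.11.15 with numpy 2.4.6, pandas 2.3.3 and matplotlib 3.10.9 was used.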

Additional observations from a re-analysis of the deposited data

Results flagged for a closer look

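For 4 genes the same contrast passed the threshold in opposite directions, between genotypes on the 2 diets (Mcm10) or between diets in the 2 genotypes (Btg2, Reln and Pdgfrb). With 1 array per group the difference between such a pair was not tested. Mcm10 had a log2 ratio for PPARα-null over wild-type of 1.75 on Wy14643 and -0.71 on the control diet, and both ratios rest on 1 probe set. The antiproliferative gene Btg2 had a log2 ratio for Wy14643 over the control diet of 0.92 in PPARα-null liver and -2.11 in wild-type liver. Among the stellate cell markers, Reln had log2 ratios of 0.80 in PPARα-null liver and -0.70 in wild-type liver, and Pdgfrb had 0.91 and -1.16.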

How the results depend on the processing

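Adding 32 to every intensity left 7 of the 47 genes higher and 1 lower after Wy14643 in wild-type liver (median log2 ratio 0.15; 782 and 765 of 12393 named genes), and 7 lower in PPARα-null liver than in wild-type liver on Wy14643. A ratio of 2 or more left 8 higher and 2 lower in wild-type liver (522 and 571 of all named genes) and 0 higher in PPARα-null liver (14 of all named genes), and 10 lower in PPARα-null liver on Wy14643 and 0 on the control diet. Both settings call fewer genes by construction, since an added constant shrinks the ratios of dim genes and a stricter ratio passes fewer. With the median over probe sets, 1 gene was lower on Wy14643 in PPARα-null liver, and the log2 ratio of Mcm3 for PPARα-null over wild-type on Wy14643 was 0.038. That median sets different probe sets against each other, both below background, and within the 5 single probe sets the log2 ratios ran from -1.08 to 0.21 (4 below 0). Without probe sets that may bind several transcripts or variants, Mcm7 and Birc5 had no probe set left, so that setting says nothing about them. Mcm3 had a log2 ratio of -0.061 for Wy14643 over the control diet in wild-type liver. Its probe set in that setting was below background on all 4 arrays. For PPARα-null over wild-type on Wy14643, the log2 ratios in that setting were 0.21 for Mcm3, 0.19 for Rfc3 and 0.015 for Cdk4. The Mcm10 probe set left in that setting was below background on all arrays, so Mcm10 was not called in any comparison. Over all settings, 118 counts and medians stayed near the reported value (counts equal or within 1.5-fold, medians within 0.28 in log2) and 10 moved. This tolerance is wider than the medians of 0.13 (Wy14643 in PPARα-null liver) and -0.05 (genotypes on the control diet), so it says little about them. The wild-type counts with 32 added and at a ratio of 2 or more were among those that moved. Of the ratios of single genes, 244 stayed within 0.28 of the reported log2 ratio, 69 moved and 5 reversed. No paired analysis was possible because each group has 1 array. For the same reason no replicate could be left out.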
